A study of Homo sapiens with 6 samples.

Results

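The genes described here are 9 adhesion and homing receptors of the human myeloma cell line KMS27, an established line of malignant plasma cells. They were chosen by name, with earlier results of these data known. They are the integrin subunits ITGA4, ITGA6, ITGA8, ITGAV, ITGB1 and ITGB7, the hyaluronan receptor CD44, the chemokine receptor CXCR4 and the selectin ligand SELPLG. They are 9 of the 63677 genes in the deposited table, and 8 of them were among the 22651 genes that averaged 1 TPM or more and were tested. ITGA8 was below that level. TPM states the share of a transcript among all transcripts of a library, corrected for its length, so levels of different genes can be set side by side.

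The study compared 3 libraries of KMS27 cells that overexpress HA-TAZ with 3 libraries of wild type KMS27 cells. The gene WWTR1 encodes TAZ, a coactivator of transcription that the Hippo pathway restrains and that works mainly through the TEAD factors, and HA is a short peptide tag. Total RNA depleted of ribosomal RNA was sequenced from both ends. The columns of the control libraries carry the name scr, which is in no label. They were assigned to the wild type cells because no other columns remained, and they are named here controls a, b and c. HA also stands in the wild type titles, and the labels do not say whether these cells received a construct, nor which promoter drives HA-TAZ or whether the cells are a clone or a pool. The labels say that libraries were made in triplicate and not that they came from separate cultures, so p-values measure the spread between libraries, which may be technical.

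An integrin is a pair of an alpha and a beta chain that binds matrix or a receptor on another cell. Alpha 4 pairs with beta 1 to bind fibronectin and VCAM1 in the bone marrow, and with beta 7 to bind MADCAM1 on vessels of the gut. CXCR4 draws plasma cells to CXCL12 made by marrow stroma, PSGL-1, the product of SELPLG, lets cells roll on selectins, and CD44 holds cells to hyaluronan and exists in many splice forms.

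The label of the overexpressed gene held in every library: WWTR1 stood between 292.6 and 305.7 TPM in HA-TAZ libraries and between 1.694 and 2.686 TPM in controls. The plasma cell identity of the line held too, with 9 of 9 plasma cell markers above the test level, of which SLAMF7 was called higher (log2 difference 0.95) and CD38 lower (-0.61). Their summed TPM ranged over 2784.5 to 3217.2 with HA-TAZ and over 4269.7 to 4825.2 in controls, most of it from the immunoglobulin J chain gene IGJ. The T cell, monocyte, stromal, endothelial and epithelial marker lists each summed to at most 6.083 TPM in any library, and most of their genes were below the test level. Of these 28 genes 6 were tested, 1 for T cells, 1 for monocytes, 2 for stroma, 0 for endothelium and 2 for epithelium, and none of the 6 was called. LUM, a stromal marker that was not tested, was listed at 0 in every control and at 0.1534 to 0.241 TPM with HA-TAZ. HA-TAZ libraries held 1.486 to 1.609 TPM of T cell markers and controls 2.585 to 2.808 TPM. Epithelial markers summed to 2.784 to 3.898 TPM against 4.992 to 6.083 TPM. The ranges of the 2 groups overlapped for monocyte markers (2.783 to 3.472 against 2.588 to 3.144 TPM), stromal markers (3.543 to 4.306 against 3.854 to 5.182 TPM) and endothelial markers (0.2865 to 0.3605 against 0.2824 to 0.3642 TPM). The T cell marker CD3D and the epithelial marker KRT19 were listed at 0 in every HA-TAZ library and in control a, and at no more than 0.1477 TPM in the other controls. These sums are of TPM as deposited, where the median log2 difference of all tested genes was -0.27. After the rescaling given below, the tested T cell marker CD3G was at -0.17 (limma adjusted p = 0.3477). The tested epithelial markers KRT8 and CDH1 were at -0.31 and -0.11 (limma adjusted p = 0.1815 and 0.5399). The part of these marker shifts in the results below was not tested, and in bulk RNA fewer cells of a type and less RNA per cell cannot be told apart. Read depth per library is unknown, since TPM sums to the same total in each. Libraries were rescaled by the median ratio over 21512 genes, with factors of 0.866 to 0.967 for HA-TAZ and 1.06 to 1.21 for controls, and values called scaled TPM below are the deposited TPM divided by these factors.

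CD44 RNA was higher in HA-TAZ cells, and it was the member of the 9 whose change passed the test. CD44 (ENSG00000026508) stood at 38.47, 39.52 and 34.71 scaled TPM in HA-TAZ 1, 2 and 3, and at 22.72, 23.44 and 21.55 scaled TPM in controls a, b and c. Every HA-TAZ library lay above every control library, with means of 37.57 ± 2.528 and 22.57 ± 0.9543 (SD, n = 3 each), a ratio of 1.664. On the log2(scaled TPM + 1) scale, the difference was 0.71 (SE 0.07, 95% interval 0.55 to 0.87, limma, Benjamini-Hochberg adjusted p = 0.009678). The call was lost without HA-TAZ 1 (adjusted p = 0.0578 by limma) and without HA-TAZ 2 (adjusted p = 0.0517 by limma). It was also lost on TPM as deposited, where the log2 difference was 0.42 (limma adjusted p = 0.0507) and the libraries read 33.31, 38.21 and 30.89 TPM against 27.47, 25.56 and 22.79 TPM. On either scale the groups stayed apart.

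Against this one call among 8 tested members, the same rule called 7.29% of all tested genes, 4.67% of them higher in HA-TAZ cells and 2.63% lower. The members' median log2 difference was 0.07 and that of all tested genes was -0.03. The groups did not overlap for 5 members (ITGA4, ITGA6, ITGAV, ITGB1 and CD44), against 38.5% of all tested genes (20.2% with HA-TAZ above and 18.3% with HA-TAZ below). An unadjusted p under 0.05 was reached by 3 members, against 30.7% of all tested genes. The CD44 difference stood at the percentile 97.5 of all tested genes.

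**Figure D1:**
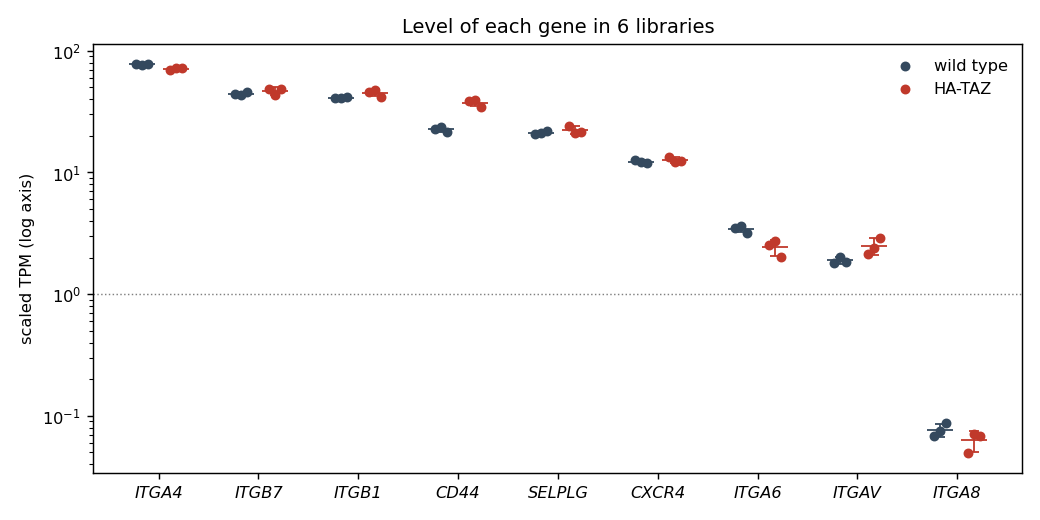
Scaled TPM of the 9 genes in the 6 libraries, on a log axis, with points for libraries, horizontal lines for group means, bars for the SD, and a dotted line at the TPM of 1 needed for a test. CD44 is the gene whose groups stand farthest apart among the 6 abundant ones, while ITGA4, ITGB7 and ITGB1 lie above it and ITGA8 lies under 0.1 in every library.

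Summed over all transcripts, ITGA4 was the most abundant of the 9 genes, with a mean of 75.92 TPM over the 6 libraries, a level above 94.7% of tested genes. ITGB7 followed at 45.99, ITGB1 at 43.57, CD44 at 29.7, SELPLG at 21.93, CXCR4 at 12.64, ITGA6 at 3.037, ITGAV at 2.186 and ITGA8 at 0.07133 TPM. Some neighbours in this order were not separated beyond their spread. The ratio of ITGB7 to ITGB1 within a library ran from 0.9012 to 1.163, on both sides of 1. CD44 and SELPLG were close in controls, where their ratio ran from 0.9872 to 1.117, and apart in HA-TAZ libraries, where CD44 was 1.591 to 1.871 times SELPLG. ITGA6 and ITGAV overlapped in HA-TAZ libraries and were separate in controls. Over transcripts typed protein-coding alone the order differed. With HA-TAZ, ITGB1 averaged 41.41, ITGA4 40.81 and ITGB7 30.87 scaled TPM. In controls ITGA4 averaged 39.82, ITGB1 37.04 and ITGB7 27.1 scaled TPM.

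The increase of CD44 was carried by both of its leading transcripts, the standard form and a form with variable exons. The CD44 gene has constant exons at both ends and a block of variable exons between them that splicing can take up or skip. ENST00000263398.6 is the standard form, which skips the block. ENST00000433892.2 takes up 3 variable exons, together 396 bases, and has the arrangement known from epithelial cells. Their junctions are shown because these letters are what tells the forms apart, 30 bases on each side, from the GENCODE 29 transcripts with the same identifiers, whose versions differ from those deposited. Capitals mark variable exon sequence and lower case marks constant exons.
ENST00000263398 exon 5 to exon 6: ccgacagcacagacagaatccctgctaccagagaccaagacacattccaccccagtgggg
ENST00000433892 exon 5 to exon 6: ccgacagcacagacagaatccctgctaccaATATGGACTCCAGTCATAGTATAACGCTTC
ENST00000433892 exon 8 to exon 9: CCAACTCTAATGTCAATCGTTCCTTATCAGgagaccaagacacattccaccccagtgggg

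ENST00000433892.2, the form with 3 variable exons, stood at 10.01, 10.73 and 8.756 TPM as deposited in HA-TAZ 1, 2 and 3 and at 6.274, 5.388 and 5.108 TPM in controls a, b and c. No control library reached any HA-TAZ library, and the log2 difference after rescaling was 0.98 (SE 0.09, limma over 57448 transcripts, adjusted p = 0.01944). ENST00000263398.6, the standard form, stood at 5.616, 6.243 and 5.759 TPM as deposited with HA-TAZ and at 4.29, 4.009 and 3.259 TPM in controls. These groups did not overlap either, and the log2 difference after rescaling was 0.75 (SE 0.09, limma adjusted p = 0.04101). Both calls were lost when any one library was left out and on TPM as deposited. These were the 2 calls among 43 tested member transcripts, where 0.564% of all tested transcripts were called, 0.456% as higher. Of the 9 tested CD44 transcripts, 8 had a positive difference, with a median of 0.53 against -0.02 for all tested transcripts.

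The authors' deposited table, a test per transcript on the same libraries, gave statistics for 74 of the 119 transcripts of the 9 genes, and 2 had a q-value under 0.05, against 5.68% of all transcripts with statistics (4.08% with a positive effect). They were these 2 CD44 forms. The authors' deposited table gave ENST00000433892.2 an effect of 0.7909 in natural log units (SE 0.08492, q = 1.485e-17), a 2.205-fold difference. It gave ENST00000263398.6 an effect of 0.6549 in natural log units (SE 0.07252, q = 1.805e-16), a 1.925-fold difference. Of 22 CD44 transcripts with statistics in the authors' deposited table, 16 had a positive effect.

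**Figure D2:**
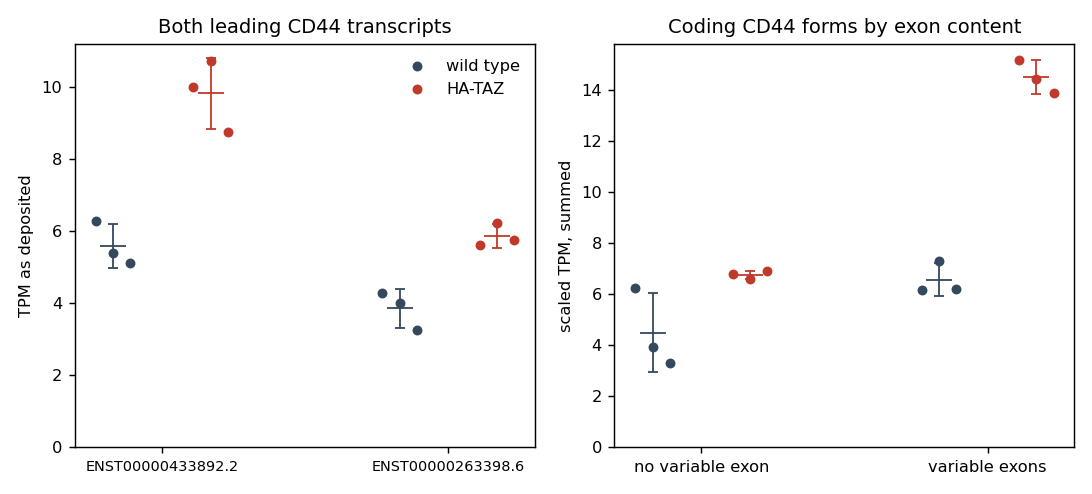
TPM as deposited of both leading CD44 transcripts (left) and summed scaled TPM of coding CD44 transcripts without and with variable exons (right), with points for libraries, horizontal lines for group means and bars for the SD. HA-TAZ libraries lie above all controls in each panel, and control a stands near the HA-TAZ libraries for the forms without a variable exon.

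The share of the form with 3 variable exons in all CD44 TPM was 28.83% ± 1.08 in HA-TAZ libraries and 22.11% ± 0.9174 in controls (SD, n = 3 each). There was no overlap (exact two-sided permutation p = 0.1, the smallest that 3 against 3 libraries allow, and 0.45 adjusted over the 9 genes). The mean share of the standard form was higher with HA-TAZ too, at 17.28% against 15.2% in controls. Relative to the standard form, the form with 3 variable exons overlapped between groups. In TPM as deposited they stood at 8.756 to 5.759 in HA-TAZ 3 and at 5.108 to 3.259 in control c. The 4 CD44 transcripts with no type in GENCODE 29 were left out of the next split. Coding transcripts that span the variable block were then summed by exon content, a split chosen after the values were seen. The 7 with variable exons stood at 15.2, 14.45 and 13.9 scaled TPM in HA-TAZ 1, 2 and 3 and at 6.169, 7.311 and 6.205 scaled TPM in controls a, b and c, a ratio of group means of 2.212. The 6 without a variable exon stood at 6.797, 6.582 and 6.887 against 6.242, 3.917 and 3.28 scaled TPM, a ratio of 1.508. Both groups of forms were thus higher in all HA-TAZ libraries. Forms with variable exons made up 68.22% ± 1.195 of this sum in HA-TAZ libraries and 60.08% ± 8.986 in controls (SD, n = 3 each; exact two-sided permutation p = 0.1). Control a, at 49.7%, stood apart from control b at 65.11% and control c at 65.42%, and HA-TAZ 3, the lowest of its group, was at 66.86%. ENST00000352818.4, a form without a variable exon, was listed at 2.626 TPM in control a and at 0 in the other 5 libraries. ESRP1, a splicing factor known to favour variable CD44 exons and named after its values were seen, averaged 64.93 ± 3.443 scaled TPM in HA-TAZ libraries and 76.5 ± 6.055 in controls (SD, n = 3 each; log2 difference -0.23, limma adjusted p = 0.1025).

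CD44 also stood higher in HA-TAZ libraries when it was set against other members within the same library, a measure that needs no rescaling. The ratio of CD44 to ITGB1 was 0.8335, 0.8248 and 0.8294 in HA-TAZ 1, 2 and 3, and 0.5513, 0.5772 and 0.5206 in controls a, b and c. The HA-TAZ values lay within a narrow range above all controls. The mean ratio of CD44 to ITGA4 was 0.5267 ± 0.04077 in HA-TAZ libraries and 0.2903 ± 0.01453 in controls (SD, n = 3 each). The mean ratio of CD44 to CXCR4 was 2.962 ± 0.2225 in HA-TAZ libraries and 1.837 ± 0.06264 in controls (SD, n = 3 each). Groups did not overlap for CD44 against ITGA4, ITGA6, ITGB1, ITGB7, CXCR4 or SELPLG (exact two-sided permutation p = 0.1 each, 0.138 adjusted over the 11 pairs compared). The ratio of CD44 to ITGAV overlapped, at 15.43 ± 3.099 and 11.95 ± 0.6451 (SD, n = 3 each; exact permutation p = 0.2). These pairs were chosen after the values were seen, and a ratio shows unequal change and not which gene moved. The CD44 ratios share CD44, the called member, as numerator, so they are not separate results.

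**Figure D3:**
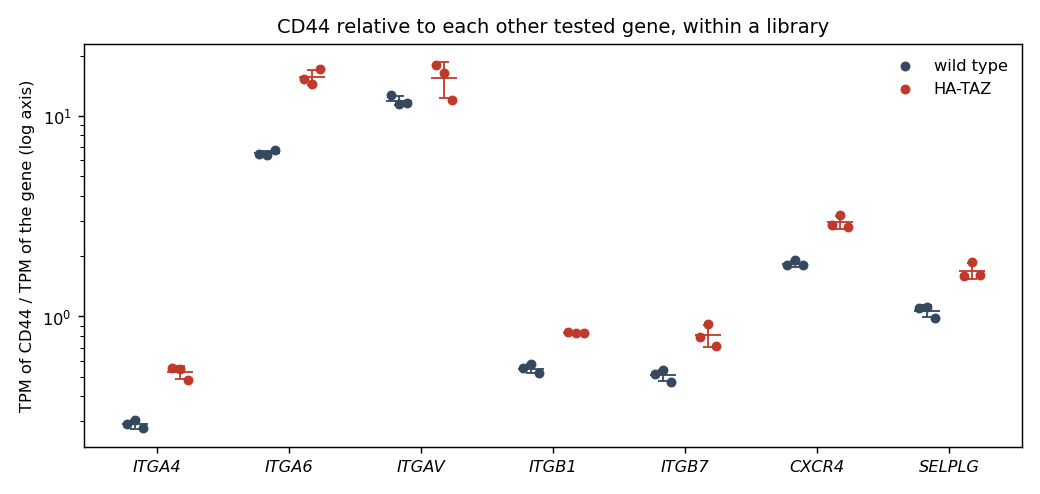
TPM of CD44 divided by the TPM of each other tested member in the same library, on a log axis, with points for libraries, horizontal lines for group means and bars for the SD. HA-TAZ libraries lie above all controls for every gene except ITGAV, where HA-TAZ 3 falls among the controls.

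The alpha 4 chain gene and its partner beta chains did not pass the test. ITGA4 (ENSG00000115232) stood at 69.81, 71.93 and 72.37 scaled TPM in HA-TAZ 1, 2 and 3 and at 78.56, 76.76 and 77.97 scaled TPM in controls a, b and c. The groups did not overlap, and the difference was small: means of 71.37 ± 1.366 and 77.76 ± 0.9141 (SD, n = 3 each), a log2 difference of -0.12 (SE 0.04, 95% interval -0.21 to -0.03, limma adjusted p = 0.09401). It passed the test, as a lower level in HA-TAZ cells, with a minimum mean TPM of 5 (limma adjusted p = 0.0449), on TPM as deposited (0.03624) and with protein-coding genes alone (0.02312), settings that called 14.8%, 14.7% and 23.5% of all tested genes in this order, and 7.27%, 13.5% and 11.3% as lower. ITGB1 (ENSG00000150093), the common beta chain of matrix receptors, stood at 46.15, 47.91 and 41.85 against 41.21, 40.62 and 41.4 scaled TPM. Its groups did not overlap, though HA-TAZ 3 lay close to control c, and the log2 difference was 0.14 (SE 0.06, 95% interval -0.01 to 0.28, limma adjusted p = 0.1855), with a sign that turned on TPM as deposited. ITGB7 (ENSG00000139626), the beta chain of gut-homing receptors, stood at 48.56, 43.18 and 48.67 against 43.81, 43.6 and 45.72 scaled TPM. These groups overlapped, with a log2 difference of 0.07 (SE 0.06, 95% interval -0.08 to 0.22, limma adjusted p = 0.4525) that also turned on TPM as deposited.

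Relative to its partners within a library, ITGA4 summed over all its transcripts was lower in every HA-TAZ library than in every control. The ratio of ITGA4 to ITGB1 was 1.513, 1.501 and 1.729 in HA-TAZ 1, 2 and 3, and 1.906, 1.89 and 1.884 in controls a, b and c. The ratio of ITGA4 to ITGB7 averaged 1.53 ± 0.12 in HA-TAZ libraries and 1.753 ± 0.04429 in controls (SD, n = 3 each), again without overlap (exact permutation p = 0.1 for each ratio, 0.138 adjusted over the 11 pairs). The ratio of ITGB7 to ITGB1 overlapped, at 1.039 ± 0.1315 and 1.08 ± 0.02152 (SD, n = 3 each; exact permutation p = 0.7). Over transcripts typed protein-coding alone, the groups overlapped for ITGA4 against ITGB7. These sums were 40.41 for ITGA4 and 29.55 for ITGB7 in HA-TAZ 2, and 39.98 and 30.26 scaled TPM in control c. For ITGA4 against ITGB1 the groups stayed apart on such sums.

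HA-TAZ libraries held a smaller share of ITGA4 transcripts that are not typed protein-coding, and the direction of the coding class depended on the scaling. Its 3 transcripts typed protein-coding in GENCODE 29 stood at 41.84, 40.41 and 40.17 scaled TPM in HA-TAZ libraries and at 39.71, 39.78 and 39.98 in controls, a ratio of means of 1.025. The other 8, most of them retained-intron transcripts, stood at 27.98, 31.52 and 32.2 against 38.84, 36.99 and 37.99 scaled TPM, a ratio of means of 0.8056. Neither class overlapped between groups on this scale, with the coding class slightly higher and the other class lower in HA-TAZ libraries. With sums and scaling over protein-coding transcripts alone, the coding sum of ITGA4 lay lower in HA-TAZ libraries, at a log2 difference of -0.11 (SE 0.04, limma adjusted p = 0.09526), so its small excess on the other scale turned direction. The non-coding share of ITGA4 was 42.79% ± 2.381 in HA-TAZ libraries and 48.79% ± 0.6341 in controls (SD, n = 3 each; exact permutation p = 0.1, 0.45 adjusted over the 9 genes). The leading coding transcript, ENST00000397033.2, held 50.31% ± 3.104 of ITGA4 TPM in HA-TAZ libraries and 44.67% ± 0.7743 in controls (SD, n = 3 each), without overlap, and its own log2 difference was 0.04 (limma adjusted p = 0.706). In the authors' deposited table its effect was 0.05065 in natural log units (q = 0.6843). This split is not particular to ITGA4: of 9828 tested retained-intron transcripts of all genes, 64.58% had a negative difference, with a median of -0.1, while the 23340 tested protein-coding transcripts had a median of 0.1. For ITGA4, 6 of 7 tested retained-intron transcripts had a negative difference, with a median of -0.16. The split by class was chosen after the values were seen.

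**Figure D4:**
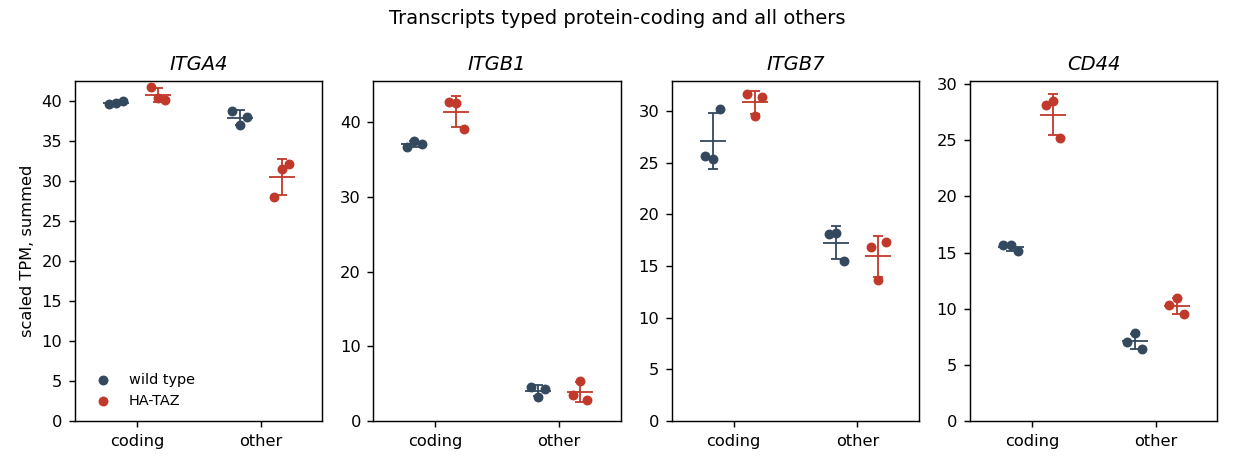
Summed scaled TPM of transcripts typed protein-coding and of all other transcripts for ITGA4, ITGB1, ITGB7 and CD44, with points for libraries, horizontal lines for group means and bars for the SD. On this scale the HA-TAZ libraries lie below all controls for the other transcripts of ITGA4 and slightly above them for its coding transcripts, a direction that turns when scaling uses protein-coding transcripts alone, and for CD44 they lie above all controls in both classes.

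Both classes of CD44 were higher in HA-TAZ libraries. Its protein-coding transcripts averaged 27.29 ± 1.85 scaled TPM in HA-TAZ libraries and 15.48 ± 0.3186 in controls, a ratio of 1.763. Its other transcripts averaged 10.27 ± 0.7197 and 7.091 ± 0.6772, a ratio of 1.449 (SD, n = 3 each), and neither class overlapped. The share of these other transcripts in CD44 TPM was lower in HA-TAZ libraries, as for ITGA4. It was 27.35% ± 0.5352 against 31.37% ± 1.709, without overlap (SD, n = 3 each, exact permutation p = 0.1, 0.45 adjusted over the 9 genes). The other transcripts of CD44 numbered 17, and 4 of them had no type, so whether those 4 code is unknown. With sums and scaling over protein-coding transcripts alone, CD44 had a log2 difference of 0.63 (limma adjusted p = 0.0009503). For ITGB1, coding transcripts averaged 41.41 ± 2.046 scaled TPM against 37.04 ± 0.4031 (SD, n = 3 each) without overlap, a ratio of 1.118, and other transcripts overlapped. The coding difference of ITGB1 was 0.00802 in log2 units with sums and scaling over protein-coding transcripts alone (limma adjusted p = 0.9134). Its leading transcript, ENST00000302278.3, had q = 0.1701 in the authors' deposited table. For ITGB7 both classes overlapped, and its leading transcript, ENST00000267082.5, had q = 0.1173 in the authors' deposited table.

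The remaining alpha chains were scarce. ITGA6 (ENSG00000091409), a laminin receptor chain, stood at 2.519, 2.728 and 2.021 scaled TPM in HA-TAZ 1, 2 and 3 and at 3.515, 3.654 and 3.191 in controls a, b and c. The groups did not overlap, with a log2 difference of -0.38 (SE 0.11, 95% interval -0.67 to -0.1, limma adjusted p = 0.09042). It passed the test, as a lower level in HA-TAZ cells, on TPM as deposited (limma adjusted p = 0.04398) and with protein-coding genes alone (0.0178). None of its 14 transcripts reached a mean TPM of 1. Its coding transcripts overlapped, at 1.609 ± 0.0706 and 1.7 ± 0.582 scaled TPM (SD, n = 3 each), and its other transcripts did not, at 0.8131 ± 0.4272 and 1.753 ± 0.4749. The leading ITGA6 transcript, ENST00000264107.7, held 29.98% ± 2.353 of the gene's TPM in HA-TAZ libraries and 32.32% ± 18.04 in controls (SD, n = 3 each), a wide spread that limits any reading of its forms.

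ITGAV (ENSG00000138448), the alpha chain of vitronectin receptors, stood at 2.142, 2.416 and 2.9 scaled TPM in HA-TAZ libraries and at 1.791, 2.034 and 1.853 in controls. Again without overlap, the log2 difference was 0.26 (SE 0.12, 95% interval -0.02 to 0.55, limma adjusted p = 0.1871), and HA-TAZ 1 lay close to control b. Its leading transcript, ENST00000261023.3, had q = 0.1906 in the authors' deposited table. ITGA8 (ENSG00000077943), a chain of mesenchymal cells and smooth muscle, was at 0.04908, 0.07092 and 0.0683 scaled TPM against 0.06861, 0.07477 and 0.08668. These values overlapped (exact two-sided permutation p = 0.2), all came from ENST00000378076.3, and no fold change is given at this level.

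The homing receptors CXCR4 and SELPLG did not pass the test. CXCR4 (ENSG00000121966) stood at 13.42, 12.29 and 12.39 scaled TPM in HA-TAZ libraries and at 12.64, 12.28 and 11.95 in controls. The groups overlapped, with a log2 difference of 0.04 (SE 0.06, 95% interval -0.1 to 0.19, limma adjusted p = 0.6607). SELPLG (ENSG00000110876) stood at 24.19, 21.12 and 21.6 scaled TPM in HA-TAZ libraries and at 20.72, 20.98 and 21.83 in controls. These groups overlapped too, with a log2 difference of 0.07 (SE 0.07, 95% interval -0.09 to 0.23, limma adjusted p = 0.5104). Their ratio within a library, CXCR4 to SELPLG, averaged 0.5701 ± 0.01387 and 0.5808 ± 0.03166 (SD, n = 3 each; exact permutation p = 0.6). The leading transcripts, ENST00000241393.3 of CXCR4 and ENST00000388962.3 of SELPLG, had q = 0.699 and q = 0.8415 in the authors' deposited table. For both genes the sign turned on TPM as deposited and with protein-coding genes alone.

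**Figure D5:**
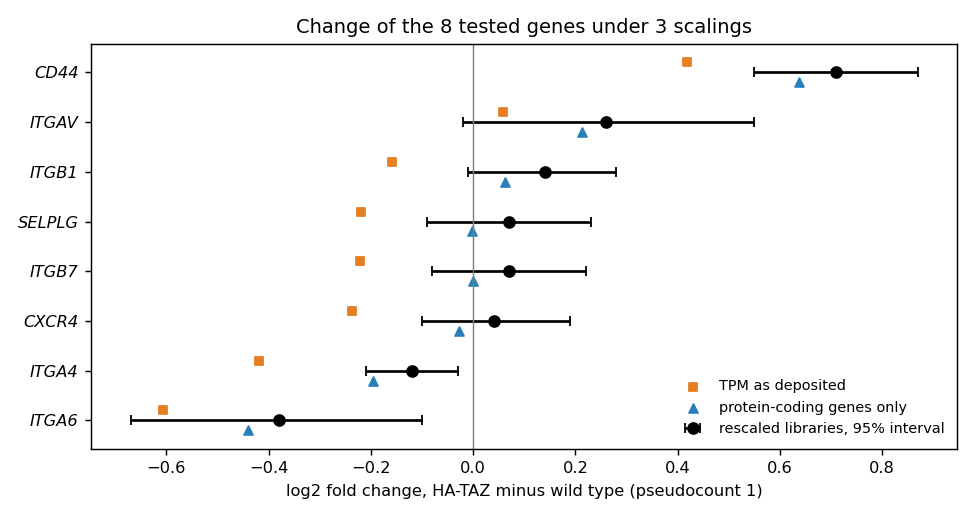
Log2 difference, HA-TAZ minus wild type, of the 8 tested genes on rescaled libraries (circles with 95% intervals), on TPM as deposited (squares) and with protein-coding genes alone (triangles). CD44 lies right of 0 and ITGA4 and ITGA6 lie left of it under all 3 scalings, while ITGB1, ITGB7, CXCR4 and SELPLG change sides on TPM as deposited.

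On TPM as deposited the median log2 difference of all tested genes was -0.27, so differences on that scale are read against it. There ITGB7 averaged 42.37 ± 0.8314 TPM in HA-TAZ libraries and 49.61 ± 2.936 TPM in controls (SD, n = 3 each). CXCR4 averaged 11.51 ± 0.4398 and 13.77 ± 1.367 TPM, and SELPLG averaged 20.19 ± 0.8823 and 23.67 ± 1.2 TPM (SD, n = 3 each). None of these 3 passed the test on that scale, although their groups did not overlap there, HA-TAZ being lower. Of all tested genes 48.0% had groups without overlap on that scale, 43.6% with HA-TAZ lower.

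Genes that work with the members were described from 9 lists, which hold 159 different genes, 92 of them tested: 14 were called higher in HA-TAZ cells, 3 lower and 75 neither, with a median log2 difference of 0.08. Leaving out any one library cut these counts to 1 to 3 higher and 0 to 2 lower. Over all tested genes the same rule called 4.67% higher and 2.63% lower, shares to set beside each list below. With protein-coding genes alone the lists held 16 higher and 12 lower calls, where 23.5% of all tested genes were called, 11.3% as lower. On TPM as deposited they held 2 higher and 12 lower calls, where 14.7% of all tested genes were called, 13.5% as lower. None of the 6 tested other alpha chains was called. The most abundant were ITGA3, at 8.309 ± 1.41 and 12.37 ± 1.537 scaled TPM (SD, n = 3 each; log2 difference -0.53, limma adjusted p = 0.07022), and ITGAE, the partner of beta 7 in mucosal T cells, with a log2 difference of 0.15 (limma adjusted p = 0.2517). Of 6 other beta chains 1 was tested, ITGB5, with a log2 difference of -0.03 (limma adjusted p = 0.9539). ITGB4, the partner of alpha 6, was below the test level.

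Among 26 tested activators and adaptors, which link integrins to actin, 3 were called higher and 0 lower, with a median of 0.12. Filamin A, FLNA, averaged 196.2 ± 10.5 scaled TPM in HA-TAZ libraries and 136.1 ± 4.004 in controls (SD, n = 3 each; log2 difference 0.52, limma adjusted p = 0.01138). The focal adhesion protein ZYX had a log2 difference of 0.36 (limma adjusted p = 0.02353) and kindlin-3, FERMT3, which activates integrins of blood cells, one of 0.61 (limma adjusted p = 0.0483). Among 7 tested membrane partners, 4 were called higher and 0 lower. They were the amino acid transporter SLC7A5 (0.54, limma adjusted p = 0.02657) and its heavy chain SLC3A2 (0.38, limma adjusted p = 0.04314), the integrin-associated protein CD47 (0.35, limma adjusted p = 0.02714) and, named after its values were seen, BSG (0.32, limma adjusted p = 0.04692). On TPM as deposited the differences of ZYX, CD47, SLC3A2 and BSG were 0.06, 0.05, 0.08 and 0.02, and those of FLNA, FERMT3 and SLC7A5 were 0.22, 0.38 and 0.24.

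Of 10 tested integrin ligands, 2 were called lower and 0 higher, with a median of -0.17. Fibronectin, FN1, bound by alpha 4 beta 1, fell from 14.3 ± 0.3402 scaled TPM in controls to 8.886 ± 0.6797 in HA-TAZ libraries (SD, n = 3 each; log2 difference -0.63, limma adjusted p = 0.01338). NPNT, a ligand of alpha 8 beta 1, fell from 33.17 ± 2.435 to 25.14 ± 1.431 scaled TPM (SD, n = 3 each; log2 difference -0.39, limma adjusted p = 0.04158). MADCAM1 was below the test level, and VCAM1 was listed at 0 in all controls and at 0.1457 to 0.2015 TPM in HA-TAZ libraries.

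Of 15 tested CD44 partners and hyaluronan genes, 2 were called higher and 0 lower, with a median of 0.04. Serglycin, SRGN, a proteoglycan core that binds CD44, averaged 271 ± 27.2 scaled TPM in HA-TAZ libraries and 181.6 ± 19.81 in controls (SD, n = 3 each; log2 difference 0.58, limma adjusted p = 0.0394). Ezrin, EZR, which ties CD44 to actin, had a log2 difference of 0.33 (limma adjusted p = 0.03701) and on TPM as deposited EZR was at 0.03 and SRGN at 0.28. Of 15 tested genes of CXCR4 signalling, 5 were called higher and 0 lower, with a median of 0.19. RGS1, which shortens signals of chemokine receptors, stood at 65.49 ± 6.789 scaled TPM in HA-TAZ libraries and 14.09 ± 1.064 in controls (SD, n = 3 each; log2 difference 2.14, limma adjusted p = 0.001107). RAC2 (0.43, limma adjusted p = 0.01846) and RGS16 (0.54, limma adjusted p = 0.02657) followed, and on TPM as deposited RGS1, RAC2 and RGS16 were at 1.85, 0.14 and 0.29. The other two, named after their values were seen, were GNB1 (0.34, limma adjusted p = 0.03312), at 0.05 on TPM as deposited, and CDC42 (0.22, limma adjusted p = 0.0422), whose sign turned to -0.08 on TPM as deposited. The ligand CXCL12 was below the test level, listed at 0 with HA-TAZ and in control b.

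Of 5 tested other homing and egress receptors none was called, and the most abundant was S1PR2 (log2 difference 0.23, limma adjusted p = 0.1124). Of 8 tested genes for PSGL-1 glycosylation and selectins, 1 was called lower and 0 higher. It was ST3GAL6, a sialyltransferase that helps build selectin ligands, which fell from 155.7 ± 5.231 scaled TPM in controls to 109 ± 4.412 in HA-TAZ libraries (SD, n = 3 each; log2 difference -0.51, limma adjusted p = 0.01063). SELPLG itself, which carries these sugars, did not pass the test.

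The genes whose pattern over the 6 libraries was most like that of CD44 were EFNB2, HIPK2 and IFI6. Their root mean square differences from CD44, in log2(scaled TPM + 1) around each gene's mean, were 0.037, 0.037 and 0.039. Their log2 differences were 0.7, 0.67 and 0.67, against 0.71 for CD44, a likeness that follows from how they were picked. EFNB2 lay near the test level, at 1.53 TPM with HA-TAZ and 0.73 TPM in controls, where the pseudocount of 1 understates a change. HIPK2 averaged 16.28 and 12.24 TPM, IFI6 7.84 and 5.67 TPM, and CD44 34.13 and 25.27 TPM.

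The 250 bases before each transcription start were searched because TAZ acts on DNA through TEAD factors. RefSeq windows on GRCh38.p14 were found for 8 of the 9 genes, 13 windows in all. SELPLG had none. The TEAD core GGAATG, on either strand, was in 1 of the 13 windows and in 11.9% of 35116 windows of all genes. The AP-1 motif TGANTCA was in 0 of 13 and in 6.57% of all, and the NF-kB motif was in 0 of 13 and in 5.21% of all. The motifs do not overlap one another in the 1 window with a match. The window of CD44, the called gene, and that of ITGB1, which holds the match (capitals, 182 bases before the start), are shown for comparison. A match is a description of these letters and not a binding site.
CD44, chr11:35138921-35139170, plus strand: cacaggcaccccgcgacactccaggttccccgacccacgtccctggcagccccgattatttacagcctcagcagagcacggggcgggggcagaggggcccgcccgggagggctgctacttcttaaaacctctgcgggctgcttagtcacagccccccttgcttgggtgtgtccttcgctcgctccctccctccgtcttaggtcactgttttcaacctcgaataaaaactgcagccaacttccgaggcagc
ITGB1, chr10:32958231-32958480, minus strand: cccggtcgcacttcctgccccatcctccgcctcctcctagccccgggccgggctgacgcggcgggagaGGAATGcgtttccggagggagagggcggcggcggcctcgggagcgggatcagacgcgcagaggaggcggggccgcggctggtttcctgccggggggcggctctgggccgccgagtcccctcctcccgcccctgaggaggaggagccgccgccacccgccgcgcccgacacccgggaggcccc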

How the data were processed

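Total RNA of 3 HA-TAZ and 3 wild type KMS27 libraries was measured. The authors deposited TPM for 215170 transcripts per library. Per the submitters' processing notes, kallisto 0.46.0, sleuth 0.30.0 and the build GRCh37 were used, with no roles given. The annotation release and whether strand was used in counting are not given in the sources used here, so values of overlapping genes are uncertain. Per the file headers, the authors' comparison gives p-values and q-values per transcript, and effects in natural log units. Its variance columns were not used, and 0 columns of values per library were left unused.

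Transcript values were added up within each Ensembl gene ID, using the deposited pairing of transcripts and genes. Libraries were divided by median-of-ratios factors. Genes or transcripts whose TPM averaged 1 or more across all 6 libraries entered limma 3.58.1 (R 4.3.3), run with its trend option on log2(scaled TPM + 1). The pseudocount of 1 understates changes of low genes. Benjamini-Hochberg adjustment covered all tested features, and an adjusted p under 0.05 was called. Single values were compared by exact two-sided permutation tests, where 3 against 3 libraries cannot go below 0.1. The limma procedure was tested on simulated data. The rest was computed in Python 3.11.15 (pandas 2.3.3, numpy 2.4.6) and plotted with matplotlib 3.10.9. Transcript types and CD44 exons came from GENCODE 29, matched on identifiers without versions, and 82.5% of gene IDs had a type there. Promoter windows came from RefSeq.

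The members and lists were chosen with earlier results of these data known. The text names all members, each member's leading transcript and called transcripts, up to 3 called genes per direction of each list (or the 2 most abundant where none was called), and the 3 genes most like a called member. One gene that this rule names is not reported here. The split of coding and other transcripts, the CD44 exon split, the ratios within a library, a sum over protein-coding transcripts alone and a q-value under 0.01 were chosen after seeing the data.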

Additional observations from a re-analysis of the deposited data

How the results depend on the processing

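No paired analysis was possible because the control columns carry scr and a number, a name in no label, so which column is which wild type sample is unknown; the planned replicate block was not run. The log2 difference of CD44 stayed positive throughout, at 0.42 on TPM as deposited, where its call was lost, and between 0.68 and 0.77 without one library each. The members called higher then numbered 0 on TPM as deposited and 0 to 1 without one library. Members called lower numbered 1 with a mean TPM of at least 5 (ITGA4), 2 on TPM as deposited and 2 with protein-coding genes alone (ITGA4 and ITGA6 both times). On these 3 settings 7.27%, 13.5% and 11.3% of all tested genes were called lower.

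Signs turned as follows. On TPM as deposited the log2 differences were -0.16 for ITGB1, -0.22 for ITGB7, -0.24 for CXCR4 and -0.22 for SELPLG. With protein-coding genes alone they were -0.00043 for ITGB7, -0.0268 for CXCR4 and -0.00295 for SELPLG. CXCR4 was at -0.0101 with a mean TPM of at least 5. With protein-coding transcripts alone in each sum, chosen after seeing the data, CXCR4 was at -0.0907 and SELPLG at -0.0756, while ITGA4 was at -0.11, ITGA6 at -0.12, ITGB1 at 0.00802, ITGB7 at 0.04, ITGAV at 0.04 and CD44 at 0.63. ITGB1, ITGB7, CXCR4 and SELPLG passed the limma test under none of the settings tried.

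Of all genes, 697 were called with no filter on level, 3329 on TPM as deposited, 2746 with protein-coding genes alone, 758 without the trend and 117 to 435 without one library, where fewer libraries were tested. On TPM as deposited 7.8% of the calls were higher. Calls in the 9 pathway lists numbered 7 higher with no filter, 2 on TPM as deposited, 16 with protein-coding genes alone, 5 without the trend and 1 to 3 without one library. Lower calls in these lists numbered 5 with a mean TPM of at least 5, 12 on TPM as deposited, 12 with protein-coding genes alone, 11 with protein-coding transcripts alone and 0 to 2 without one library. Member transcripts called higher numbered 0 with no filter, 1 with a mean TPM of at least 5, 0 on TPM as deposited, 1 without the trend and 0 to 0 without one library. The share of the leading transcript, HA-TAZ minus control, ran from -12.64 to 4.116 percentage points for ITGA6 and from -7.235 to 3.128 for ITGAV without one library. It turned to 4.116 and 1.514 for ITGA6 without control b and control c, and to 3.128 and 1.917 for ITGAV without HA-TAZ 3 and control c. The cause of these shifts was not tested, and read depth per library, which limits the scarce genes, is unknown.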
